A study of Mus musculus with 8 samples.

Results

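The genes described here encode enzymes that move nitrogen between glutamate, glutamine, alanine, aspartate and the purine ring in muscle. They were taken by name: Glul, Glud1, Got1, Got2, Gpt, Gpt2, Adssl1 and Ampd1, each represented by the transcript cluster that carried its symbol alone, and by the cluster with the highest mean had there been several. Of the 8 genes, 6 had such a cluster, 1 each, among the 14860 genes that clusters with 1 symbol stood for. Got2 and Ampd1 were not analysed here.

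The levels came from exon arrays of the tibialis anterior, a mostly fast-twitch leg muscle, of male mice aged 8 weeks. The control pools came from mice with free access to food, and the other pools from mice fasted for 24 h; the strain is not given in the sources used here, and no other treatment is named. Each array held RNA pooled from 3 mice, and the experiment was carried out 4 times with 1 fed and 1 fasted pool, so n = 4 per group counts pools and not animals. All values below are the authors' RMA values, read as log2, and a difference is fasted minus fed on that scale, where 1 is a doubling.

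Skeletal muscle breaks down protein during a fast and exports much of the nitrogen as alanine and glutamine. Transaminases pass amino groups to and from glutamate, with alanine transaminase (Gpt in the cytosol, Gpt2 in mitochondria) pairing glutamate with pyruvate, and aspartate transaminase (Got1 in the cytosol) pairing it with oxaloacetate. Glutamate dehydrogenase (Glud1) releases or fixes ammonia in the mitochondrial matrix, and glutamine synthetase (Glul) joins ammonia to glutamate. Adssl1 encodes the muscle adenylosuccinate synthase, which brings the nitrogen of aspartate into the purine nucleotide cycle.

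A 24 h fast was accompanied by a clear difference in 1 of the 6 measured genes. Glul rose 2.24-fold, with fed and fasted pools that did not overlap, while Glud1, Got1, Gpt, Gpt2 and Adssl1 stayed within differences of -0.16 to 0.23 and passed no test. The count of 1 of 6 members called stands beside 0.818% of the 16755 transcript clusters tested, 137 in all (limma with experiment as a block, Benjamini-Hochberg adjusted p under 0.05 over all clusters). For calls in the higher direction the background was 0.531%. The median difference was 0.16 over the 6 members and -0.02 over all clusters.

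The upstream sequences of Glul and of Got1 are shown because Glul is the member that rose and Got1 is a transaminase that passed no test. They are RefSeq sequences of build GRCm38.p6, from 250 bases before to 50 bases after the annotated start, 5′ to 3′ on the gene's own strand, with the CCAAT box, read on either strand as CCAAT or ATTGG, in capitals. The Glul window lies at chr1:153899679-153899978 on the plus strand and the Got1 window at chr19:43524556-43524855 on the minus strand.
Glul: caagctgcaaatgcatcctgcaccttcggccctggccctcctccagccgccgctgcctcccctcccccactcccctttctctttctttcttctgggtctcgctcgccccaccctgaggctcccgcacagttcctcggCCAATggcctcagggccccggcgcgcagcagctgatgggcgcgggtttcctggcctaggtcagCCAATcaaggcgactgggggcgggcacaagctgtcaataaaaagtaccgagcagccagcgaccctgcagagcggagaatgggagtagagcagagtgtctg
Got1: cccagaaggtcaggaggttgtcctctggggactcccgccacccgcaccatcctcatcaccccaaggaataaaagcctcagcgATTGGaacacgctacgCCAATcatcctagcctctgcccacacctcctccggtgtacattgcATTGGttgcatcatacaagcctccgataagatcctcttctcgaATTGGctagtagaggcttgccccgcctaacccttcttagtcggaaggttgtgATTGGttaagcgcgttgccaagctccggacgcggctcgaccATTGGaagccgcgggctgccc
A table of such windows held those of 5 of the 6 measured genes, Glul, Glud1, Got1, Gpt2 and Adssl1. The Glul window held 2 CCAAT matches and the Got1 window 6, while those of Glud1, Gpt2 and Adssl1 held 0; of 32851 such windows, 37.4% held at least 1. The glucocorticoid response core TGTTCT, read on both strands, matched once in Adssl1 and 0 times in the Glul, Glud1, Got1 and Gpt2 windows, against 19.0% of all windows. The FoxO core TGTTTAC, also on both strands, had 0 matches in the 5 windows against 3.65% of all windows, and no motif contains another. These counts describe the letters of the windows only.

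Glul, glutamine synthetase (transcript cluster 6754149), had log2 levels of 10.22, 10.13, 10.44 and 10.43 in the fed pools of experiments 1 to 4. In the fasted pools of the same experiments the levels were 11.63, 11.53, 11.32 and 11.40. Every fasted pool lay above every fed pool, and the lowest fasted value exceeded the highest fed value by 0.89. Such a separation of the groups was seen in 6.77% of all clusters and in 1 of the 6 members. The means were 10.31 ± 0.15 in fed and 11.47 ± 0.14 in fasted muscle (SD, n = 4).

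The fitted difference of Glul was 1.16 ± 0.13 (SE; limma adjusted p = 0.0136), with a 95% interval of 0.86 to 1.46, or 1.82-fold to 2.76-fold. By experiment the differences were 1.41, 1.39, 0.89 and 0.96. The rise thus ran from 1.85-fold to 2.66-fold. As deposited, experiments 1 and 2 combined the lower fed levels with the higher fasted levels, and experiments 3 and 4 the reverse. After quantile normalization the fed levels were 10.41, 10.16, 10.36 and 10.32 in experiments 1 to 4, with experiment 1 the highest, so that pattern depended on scaling. The adjusted p was 0.0737 without experiment 1 and 0.0616 without experiment 2, with differences of 1.08 and 1.09 over the experiments left in.

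**Figure D1:**
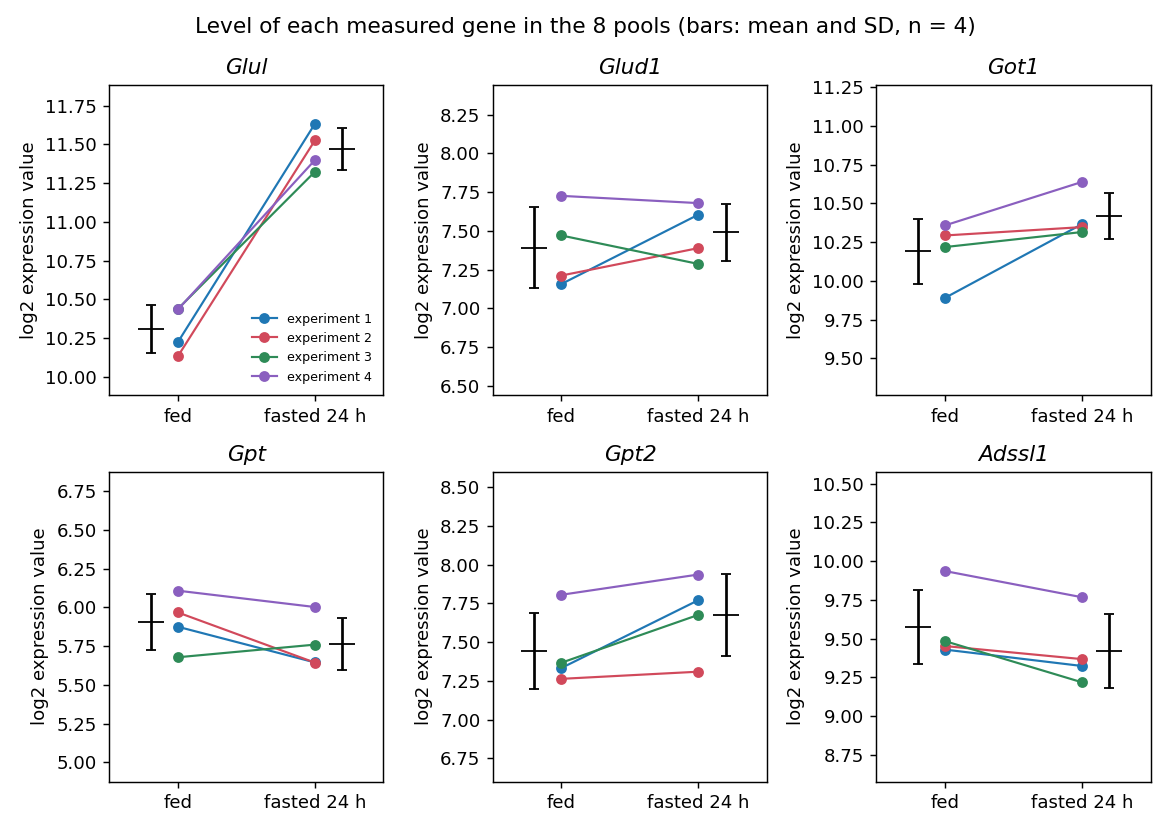
Log2 expression value of each measured gene (y axis, with the same width of scale in every panel) in fed pools and pools fasted for 24 h, with a line joining the pools of 1 experiment and black bars for the mean and SD of 4 pools. All 4 Glul lines climb, from between 10.13 and 10.44 to between 11.32 and 11.63, while the fed and fasted points of the other 5 genes overlap.

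Glud1, glutamate dehydrogenase (cluster 6818212), had log2 levels of 7.16, 7.21, 7.47 and 7.73 in the fed pools and 7.61, 7.39, 7.29 and 7.68 in the fasted pools. The groups overlapped, and the difference was above 0 in experiments 1 and 2 (0.45 and 0.18) and below 0 in experiments 3 and 4 (-0.18 and -0.05). The fitted difference was 0.10 ± 0.13 (SE, limma adjusted p = 0.911), with a 95% interval of -0.20 to 0.40.

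Glul makes glutamine from glutamate, and Glud1 makes or consumes glutamate, so the changes of both were compared within each experiment. The Glul difference exceeded the Glud1 difference by 0.96, 1.22, 1.07 and 1.01 in experiments 1 to 4. The mean excess was 1.06 ± 0.11 (SD, n = 4), with the same direction in 4 of 4 experiments. An exact two-sided sign-flip permutation test gave p = 0.125 (adjusted p = 0.125 over the 2 pairs of genes compared in this way), the smallest that 4 pairs allow, so this test could not pass 0.05.

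Got1, the cytosolic aspartate transaminase (cluster 6873217), had log2 levels of 9.89, 10.29, 10.22 and 10.36 in the fed pools and 10.37, 10.35, 10.32 and 10.64 in the fasted pools. The fasted value was higher in 4 of 4 experiments (in experiment 2 it was lower, with a difference of -0.02, after quantile normalization), but the lowest fasted pools lay below the highest fed pool, by 0.04 at most. The differences were 0.48, 0.05, 0.10 and 0.28, and the fitted value was 0.23 ± 0.11 (SE, limma adjusted p = 0.553). The 95% interval ran from -0.04 to 0.49, so these arrays leave a rise of up to 1.41-fold possible.

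Gpt, the cytosolic alanine transaminase (cluster 6831689), had log2 levels of 5.87, 5.97, 5.68 and 6.11 in fed and 5.64, 5.64, 5.76 and 6.00 in fasted pools. These levels lie close to the array medians, which ran from 5.76 to 5.91, and without detection calls a level there may include background. The fasted pool was lower in 3 of 4 experiments and the groups overlapped. The fitted difference was -0.14 ± 0.11 (SE, limma adjusted p = 0.770), with a 95% interval of -0.40 to 0.12.

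Gpt2, the mitochondrial alanine transaminase (cluster 6977814), had log2 levels of 7.33, 7.26, 7.37 and 7.81 in fed and 7.77, 7.31, 7.68 and 7.94 in fasted pools. The fasted pool was higher in 4 of 4 experiments, by 0.44, 0.05, 0.31 and 0.13, yet the groups overlapped, with the pools of experiment 4 highest in both. The fitted difference was 0.23 ± 0.11 (SE, limma adjusted p = 0.529), with a 95% interval of -0.03 to 0.49.

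The alanine transaminases catalyse the same reaction in different compartments, and their differences were set against each other. The Gpt2 difference exceeded the Gpt difference by 0.67, 0.37, 0.23 and 0.24 in experiments 1 to 4, a mean of 0.38 ± 0.21 (SD, n = 4). The direction was the same in 4 of 4 experiments, and the exact two-sided sign-flip permutation test gave p = 0.125 (adjusted p = 0.125 over 2 pairs), again the smallest possible. Neither gene passed by itself, so the comparison describes a gap between them without a call for either. The corresponding comparison of aspartate transaminases was not made, as Got2 was not analysed here.

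Adssl1, the muscle adenylosuccinate synthase (cluster 6798271), had log2 levels of 9.43, 9.45, 9.48 and 9.94 in fed and 9.32, 9.37, 9.22 and 9.77 in fasted pools. The fasted pool was lower in 4 of 4 experiments, by small amounts: the differences were -0.11, -0.08, -0.27 and -0.17. The groups overlapped, with experiment 4 highest in both. The fitted difference was -0.16 ± 0.10 (SE, limma adjusted p = 0.689), with a 95% interval of -0.39 to 0.08.

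Glul was also the 1 member with an unadjusted p under 0.05. In all, 4 of the 6 members had the same direction in 4 of 4 experiments, Glul, Got1 and Gpt2 higher and Adssl1 lower; after quantile normalization Got1 no longer did, and Gpt was lower in 4 of 4, with differences of -0.11, -0.30, -0.02 and -0.10. Among all clusters 18.7% did, 8.61% higher and 10.1% lower. Of the 5 members that were not called, 95% intervals reached no further than -0.40 and 0.49, so a doubling of the array value such as that of Glul lies outside each of them. For Gpt, whose level may include background, this holds for the array value only and does not exclude a doubling of the transcript.

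**Figure D2:**
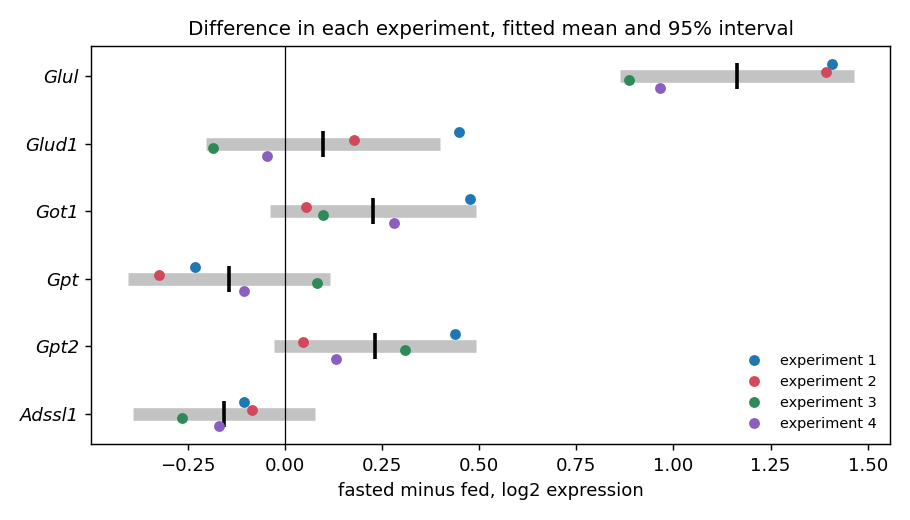
Fasted minus fed difference on the log2 scale (x axis) of each measured gene, with a point per experiment, a black tick for the fitted mean and a grey bar for its 95% interval. Only the interval of Glul, 0.86 to 1.46, lies clear of 0; that of Got1 runs from -0.04 to 0.49 and that of Gpt2 from -0.03 to 0.49.

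The pattern of Glul over the 8 arrays was most like those of Ctsl, which encodes a lysosomal protease (Pearson r = 0.990), the deubiquitinase gene Usp3 (0.989), the atrophy ubiquitin ligase gene Fbxo32 (0.987), the endoplasmic reticulum autophagy receptor gene Retreg1 (0.987) and the F-box gene Fbxl20 (0.987). The r values are a description over 4 fed and 4 fasted arrays and are set mostly by the gap between the groups. As the genes were picked by r with Glul on these same arrays, their adjusted p below describe them and are no separate evidence. Of these genes, Usp3 (0.98 ± 0.12 SE, adjusted p = 0.0170), Fbxo32 (2.13 ± 0.13, adjusted p = 0.000840) and Retreg1 (2.27 ± 0.17, adjusted p = 0.00307) rose in limma's test. Ctsl was at 0.52 ± 0.10 (adjusted p = 0.0773) and Fbxl20 at 0.46 ± 0.10 (adjusted p = 0.115).

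The enzymes around the members were read through 7 lists holding 83 different measured genes, of which 4 rose and 0 fell in limma's test. At an unadjusted p under 0.05, 19 were higher and 5 lower. The share of all clusters at that unadjusted level was not counted. Counts at an unadjusted p, here and elsewhere, therefore have no background beside them and are not read as a result. In the list of other glutamine and glutamate enzymes, 1 of 15 rose and 14 did not pass, with a list median of 0.01. The gene that rose was Ctps2, a CTP synthase that takes its amino group from glutamine. Its log2 levels were 5.84, 5.55, 5.76 and 5.86 in fed and 6.57, 6.31, 6.41 and 6.33 in fasted pools, with no overlap, and its difference was 0.65 ± 0.11 (SE, adjusted p = 0.0427). The call ended when any 1 experiment was left out (adjusted p from 0.0805 to 0.228) and after centring the arrays on their medians (0.0760). The level of Ctps2 is also close to the array medians.

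None of 13 other transaminase genes passed limma's test, 1 had an unadjusted p under 0.05, and the list median was 0.05. The smallest adjusted p were those of Kyat3, a kynurenine aminotransferase gene, at 0.35 ± 0.12 (SE, adjusted p = 0.327), and Abat, the GABA transaminase gene, at -0.23 ± 0.11 (adjusted p = 0.513). Bcat2, the mitochondrial branched-chain transaminase gene, was at 0.05 ± 0.11 (adjusted p = 0.957); it was named after its value was seen.

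None of 16 genes of the purine nucleotide cycle and AMP handling passed limma's test and 6 had an unadjusted p under 0.05, with 8 values above 0, 8 below and a list median of 0.00. Xdh, the xanthine dehydrogenase gene of purine breakdown, came nearest. Its fed levels were 6.52, 6.31, 6.33 and 6.36 and its fasted levels 7.47, 7.01, 6.80 and 6.84, without overlap, for a difference of 0.65 ± 0.12 (SE, adjusted p = 0.0679). Xdh passed in 3 of 12 alternative settings. Ampd3, which encodes an AMP deaminase isoform, was at 0.46 ± 0.12 (adjusted p = 0.193) and higher in 4 of 4 experiments. Adsl, the lyase that follows adenylosuccinate synthase in the cycle, was at -0.10 ± 0.11 (adjusted p = 0.886), and was also named after its value was seen.

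A list of 5 measured genes was drawn around Got1 and the malate-aspartate shuttle, which carries reducing equivalents into mitochondria. None passed limma's test, 1 had an unadjusted p under 0.05 and the median was -0.13. That 1 gene was Slc25a22, a mitochondrial glutamate carrier gene that is not part of the shuttle itself, at 0.31 ± 0.10 (SE, adjusted p = 0.311). The oxoglutarate carrier gene Slc25a11 of the shuttle was at -0.19 ± 0.10 (adjusted p = 0.588). None of 16 glutamine and glutamate transporter genes passed either, with a median of 0.05 and 4 at an unadjusted p under 0.05. The amino acid exchanger genes Slc7a6 and Slc7a8 were at 0.49 ± 0.12 (adjusted p = 0.144) and 0.36 ± 0.12 (adjusted p = 0.286).

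Of 10 genes that supply or use the pyruvate partnered with alanine, 1 rose, and the median was -0.04. It was Pdk4, a kinase that shuts pyruvate dehydrogenase, whose levels of 9.44, 9.42, 9.07 and 9.63 in fed and 11.32, 11.41, 11.11 and 11.38 in fasted pools gave a difference of 1.91 ± 0.11 (SE, adjusted p = 0.000840). Of 9 regulators and their known target genes, 2 rose and the median was 0.40. Both are targets: Fbxo32, given above, and Fkbp5, a co-chaperone gene induced by the glucocorticoid receptor, at 1.28 ± 0.15 (adjusted p = 0.0141). The differences of Fkbp5 were 1.73, 1.02, 1.38 and 1.00 in experiments 1 to 4, and without experiment 1 its adjusted p was 0.0623. Klf15, a transcription factor gene tied to amino acid breakdown and named after its value was seen, was at 0.66 ± 0.13 (adjusted p = 0.0844).

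**Figure D3:**
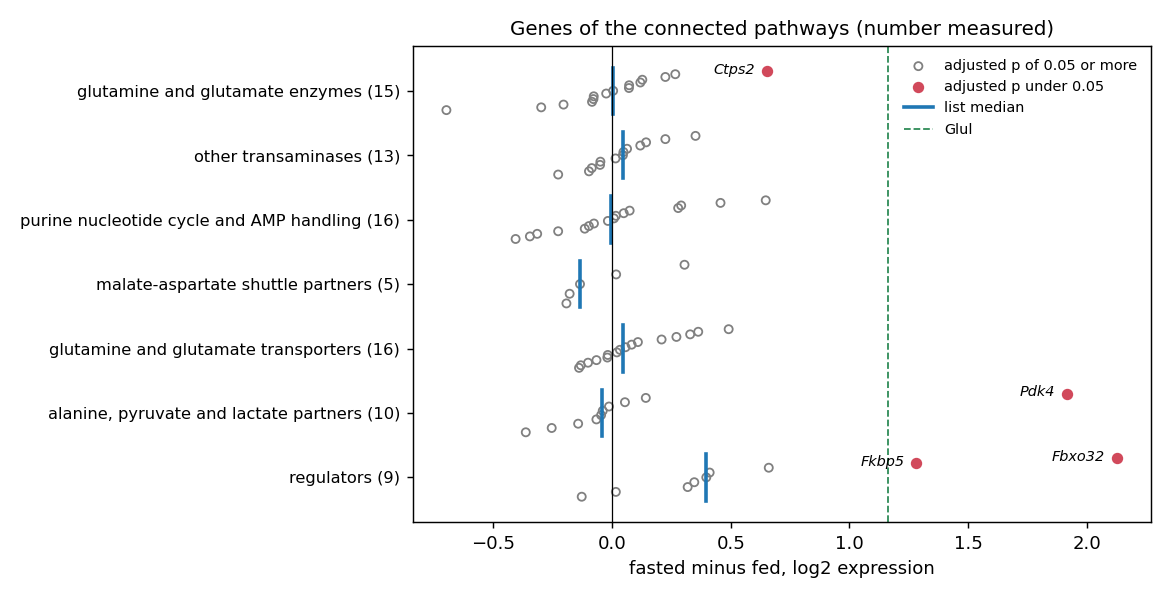
Fasted minus fed difference on the log2 scale (x axis) of every measured gene of the 7 lists (rows, number measured in brackets), filled where limma's adjusted p was under 0.05, with the list median as a blue bar and the Glul difference of 1.16 as a dashed line. Ctps2, Pdk4, Fkbp5 and Fbxo32 are the filled points, and the medians of the lists other than the regulators lie between -0.13 and 0.05.

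Markers were set beside the tissue label. The 7 measured fast fibre genes of 9 listed, Ckm, Acta1, Mylpf, Tnnt3, Tnni2, Pvalb and Actn3, had a summed log2 level of 14.54 to 14.82 in fed and 14.46 to 14.75 in fasted pools. All 7 differences were below 0, with a median of -0.05. The 2 measured slow fibre markers of 5 listed were Tnni1 and Myl2. Myl2 varied far more between pools than the fast fibre genes, from 8.30 to 10.42 in fed and 8.50 to 10.06 in fasted pools. Tnni1 ran from 5.77 to 6.24 in fed and 5.66 to 6.76 in fasted pools. The summed log2 level of both ran from 8.53 to 10.50 in fed and 8.69 to 10.15 in fasted pools, with differences within experiments of -0.75 to 0.62. The values were added before the log was taken, so this sum mostly followed Myl2. None of 35 measured markers of 10 cell types passed limma's test, and 8 had an unadjusted p under 0.05. Beside the rise of Glul, both measured tendon markers of 3 listed, Tnmd and Scx, had lower values in fasted pools, at -0.73 ± 0.13 (SE, adjusted p = 0.0652) and -0.70 ± 0.15 (adjusted p = 0.108). Their summed log2 level ran from 8.06 to 8.86 in fed and from 7.62 to 8.03 in fasted pools, and its part in the values above was not tested. The fasted mean of Scx, 5.45, lay below the array medians, where a level may include background. In bulk RNA, fewer cells of a type and less RNA per cell cannot be told apart. The summed log2 level of 4 endothelial markers ran from 9.30 to 9.68 in fed and 9.34 to 9.85 in fasted pools, with differences within experiments of -0.24 to 0.24. That sum joined genes of opposite direction. Kdr was at -0.48 ± 0.12 (SE, limma adjusted p = 0.163) and lower in 4 of 4 experiments. Pecam1 was at 0.34 ± 0.11 (adjusted p = 0.292) and higher in 4 of 4, while Cdh5 and Tek were at 0.01 and 0.14. The summed log2 level of 4 macrophage markers ran from 7.64 to 7.95 in fed and 7.84 to 7.97 in fasted pools. Its value was higher in the fasted pool in 4 of 4 experiments, by 0.02 to 0.28. Among the markers only Cd68, at 0.27 ± 0.10 (SE), was higher in 4 of 4. Csf1r and Cd14 were each higher in 3 of 4, and Adgre1, at 0.02 ± 0.14, in 2 of 4. The mean levels of Csf1r (5.87 fed, 5.97 fasted), Cd14 (5.25 and 5.36) and Adgre1 (5.38 and 5.40) lay close to or below the array medians. Such levels may include background. The sum of 4 fibroblast markers (10.67 to 11.15 fed, 10.72 to 11.25 fasted) joined genes of opposite direction. The collagen genes Col1a1 and Col1a2 were at -0.39 ± 0.13 (SE, limma adjusted p = 0.301) and -0.45 ± 0.11 (adjusted p = 0.169), each lower in 4 of 4 experiments. Pdgfra, a receptor gene of fibroblasts and their progenitors, was at 0.29 ± 0.11 (adjusted p = 0.369) and higher in 4 of 4. The remaining marker, Dcn, had the highest means of these genes, 10.45 in fed and 10.58 in fasted pools, so the sum mostly followed Dcn. It was at 0.14 ± 0.14 (SE, limma adjusted p = 0.852) and higher in 3 of 4. The part of these markers in the values above was not tested.

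The call of Glul was set against 12 other ways of processing. Its difference ran from 1.08 to 1.26 and its adjusted p was under 0.05 in 9 of them. The other 3 were the fits without experiment 1 and without experiment 2, given above, and a paired test without moderated standard errors, at an adjusted p of 0.267, which passed 1 cluster of all 16755.

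**Figure D4:**
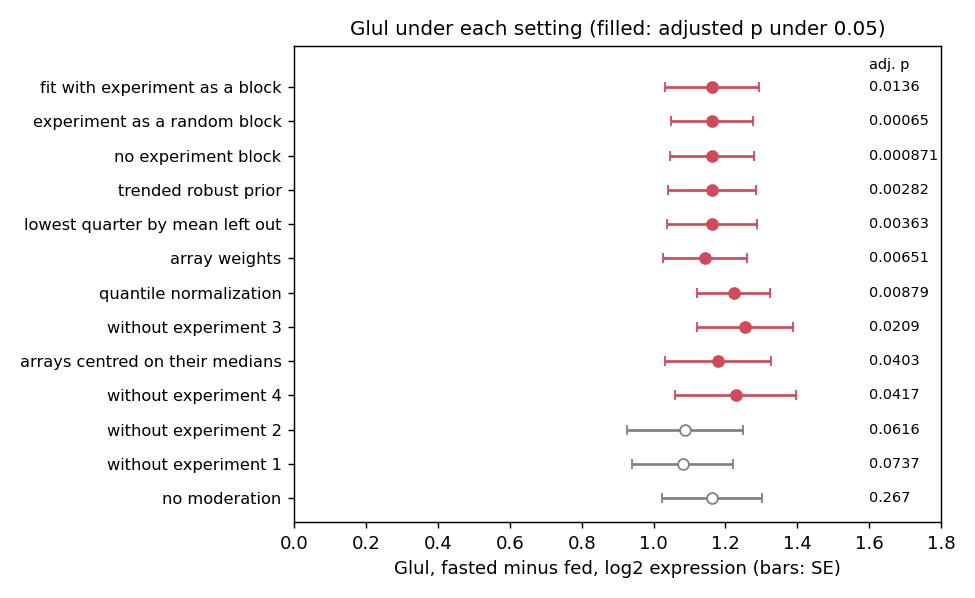
Fasted minus fed difference of Glul on the log2 scale (x axis, bars show the SE) in the fit with experiment as a block and under 12 alternatives, with the adjusted p at the right and filled points where it was under 0.05. The value stays between 1.08 and 1.26, and the 3 open points have adjusted p of 0.0616, 0.0737 and 0.267.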

How the data were processed

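RNA of the tibialis anterior was amplified to cDNA and labelled with biotin for exon arrays, per the labels' protocols. The authors deposited RMA values, read here as log2 because they ran from 1.08 to 13.3, per the submitters' processing notes for the method; RMA corrects background, normalizes between arrays and compresses differences at low signal. The notes name hg18 with no stated role. Detection calls and scanner files were not used here. Gene symbols are those of the platform annotation and may be outdated; those of the 6 measured genes matched RefSeq (GRCm38.p6) by Entrez number.

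Groups came from the titles. The series description sets each fasted pool against the fed pool of its experiment, so experiment was a block; deviations of paired arrays from group means correlated at -0.18, 0.05, -0.14 and 0.44. limma 3.58.1 in R 4.3.3 (lmFit, eBayes) was fitted to all 16755 clusters of 8 arrays, with Benjamini-Hochberg adjustment, a threshold of 0.05 and no fold threshold. Intervals at 95% use the moderated SE on 3 residual plus 4.84 prior degrees of freedom. The fit was tested on simulated data with planted log2 differences. It called 10% of those of 0.5, 88% of those of 1, 96% of those of 1.5 and 100% of those of 2. A gene with a difference near 0.5 would thus mostly go uncalled. The 8 arrays limit the precision (median SE 0.12, array medians 5.76 to 5.91, correlations between arrays 0.957 to 0.980 across clusters).

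Members and lists were chosen with earlier results of these data known. Named genes are the members, list genes past the threshold or otherwise the 2 of smallest adjusted p, and the 5 genes most correlated with each called member. Alternatives were other block terms, leaving out each experiment, other scalings, priors and weights, and a filter on dim clusters.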

Additional observations from a re-analysis of the deposited data

Results flagged for a closer look

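Among 18 sets of 4 values tested (fed levels, fasted levels and differences of the 6 genes), 2 held a value far from the other 3, where chance flags about 1 in 20. The fed Adssl1 level of experiment 4, 9.94, stood above 9.43, 9.45 and 9.48, and its gap to the nearest value was 0.892 of the range (Dixon's ratio, past its 95% critical value). The fasted Got1 level of experiment 4, 10.64, stood above 10.32, 10.35 and 10.37, with a ratio of 0.842. Neither value stood as far apart after quantile normalization, though the ratios were not computed again. The fed Adssl1 levels of experiments 1 to 4 were then 9.61, 9.43, 9.47 and 9.80, and the fasted Got1 levels 10.37, 10.28, 10.48 and 10.50.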

How the results depend on the processing

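The number of clusters called was 137 with experiment as a block and 185 with no replicate block; 229 with experiment as a random block, 265 with array weights, 216 with a trended robust prior, 240 without the lowest 25% of clusters by mean, 45 after centring each array on its median and 1 without moderated standard errors. Leaving out 1 experiment gave 16 to 94, with 16 without experiment 1, 37 without experiment 2 and 31 without experiment 4. The members called were 1 (Glul), and 0 without moderation; leaving out 1 experiment gave 0 to 1. Without the block, the adjusted p of Glul was 0.000871 and no member changed its call. Of the 83 list genes 4 were called, 0 without moderation, and 2 to 3 when 1 experiment was left out, with 2 without experiment 1. The Glud1 difference, which passed in none of the 12 alternatives, reversed to -0.018 without experiment 1, and ran from -0.018 to 0.19 when 1 experiment was left out. Got1, Gpt, Gpt2 and Adssl1 kept their direction and stayed uncalled in the 12 alternatives, though the size moved: Got1 went from 0.23 to 0.14 without experiment 1, and Gpt from -0.14 to -0.085 without experiment 2 and -0.22 without experiment 3. The excess of Glul over Glud1 ran from 1.01 to 1.12 and that of Gpt2 over Gpt from 0.28 to 0.42. Each measured member had 1 cluster, so no other cluster could stand for it. A fit without an experiment has fewer arrays, so a call can end with little change in the difference.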

Other observations

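Experiment 4 had the highest pool of both groups for 5 of the 6 genes, Glud1, Got1, Gpt, Gpt2 and Adssl1, a pattern noticed after the values were seen. Among all clusters it was found in 11.6%. The arrays of experiment 4 also had the widest spread of values, with interquartile ranges of 1.69 in fed and 1.65 in fasted against 1.34 to 1.59 in the other 6 arrays. After quantile normalization, which gives every array the same spread, the pattern held for 3 of the 6 genes, Glud1, Gpt and Adssl1, and for 9.27% of all clusters.

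The same normalization drew the Glul differences of experiments 1 to 4 to 1.39, 1.37, 1.13 and 1.01, from 1.41, 1.39, 0.89 and 0.96 as deposited. The SD of the fed Glud1 pools was 0.26 as deposited and 0.16 after it, and the Glud1 differences of experiments 3 and 4 went from -0.18 and -0.05 to -0.01 and -0.01. For Got1 the largest difference, that of experiment 1, went from 0.48 to 0.33, while the smallest, that of experiment 2, went from 0.05 to -0.02, so that the direction was no longer the same in 4 of 4 experiments.

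Ppat, which encodes the glutamine-using enzyme that commits to purine synthesis and was named after its values were seen, had log2 levels of 7.96, 8.30, 8.60 and 8.08 in fed and 7.96, 7.71, 7.02 and 7.47 in fasted pools. Its differences were -0.0031, -0.59, -1.59 and -0.61, a wide spread with a fitted value of -0.70 ± 0.23 (SE, limma adjusted p = 0.280).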
